A study of Mus musculus with 6 samples.

Results

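Mx2, Oas1a, Ifi204 and Psmb8 are genes that interferons induce, and their response to growth hormone (GH) in bone is described here. They were found as all probe rows whose only gene symbol was one of these names, which gave 4 rows, 1 for each gene, among 21446 rows and 8973 genes with a row of a single symbol. None of the 4 names occurred in a row with several symbols. The genes were chosen from results already known from these arrays, their GH over PBS ratios at both times, so all values of the 4 genes are given as a description without a test. Tests are given only for genes outside the 4, those of the pathway, the constitutive proteasome and markers of cell types.

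The animals were 4-week-old C57BL/6J-Ghrhr<lit> (lit/lit) mice, which lack GH because the receptor for its releasing hormone is disrupted, and every sample, GH or control, carries this mutation. GH (4 mg/kg body weight) was given once under the skin, control mice got phosphate-buffered saline (PBS), and bones were collected after 6 or 24 hours, with the RNA of 2 animals in each sample. Each of 6 two-colour arrays set a GH pool labelled with Cy5 against a PBS pool labelled with Cy3, replicates 1 to 3 at 6 hours and replicates 4 to 6 at 24 hours. A value is the log2 ratio of GH over PBS on 1 array, so -1 means that the GH pool gave 0.5 times the PBS signal. The direction is likely from the dyes and the order of the channels in the labels, and no array had swapped dyes, so that a dye effect of a gene adds to all its ratios.

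Interferons bind receptors that activate the kinases Jak1 and Tyk2 (or Jak1 and Jak2 for interferon gamma). The signal ends at DNA elements of the induced genes, the interferon-stimulated response element (ISRE), a repeat of GAAA bound by a complex that holds Irf9, and the gamma-activated site (GAS), TTCNNNGAA. The GH receptor signals through Jak2 and mainly Stat5, whose binding sequence has the same TTCNNNGAA core. Interferon-induced genes can be expressed in most cell types of bone and marrow.

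Promoter sequences of Mx2 and Ifi204 were not in the sources used here. The promoters of Oas1a and Psmb8 show which of these elements lie in front of these 2 genes. They are the 250 bases before the start of the gene in RefSeq (GRCm38.p6), written 5′ to 3′ on the strand of the gene. Oas1a lies on the minus strand, chr5:120907526-120907775, and Psmb8 on the plus strand, chr17:34197945-34198194. Capitals mark matches to GAAA, any 2 bases, GAAA (the ISRE core) or to TTCNNNGAA (GAS), searched on both strands, and the 2 ISRE matches of Oas1a overlap each other.
Oas1a: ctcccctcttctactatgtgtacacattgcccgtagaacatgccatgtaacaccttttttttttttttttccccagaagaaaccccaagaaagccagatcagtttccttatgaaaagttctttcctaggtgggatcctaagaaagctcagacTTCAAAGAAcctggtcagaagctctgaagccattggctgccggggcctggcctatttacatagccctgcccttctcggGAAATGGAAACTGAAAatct
Psmb8: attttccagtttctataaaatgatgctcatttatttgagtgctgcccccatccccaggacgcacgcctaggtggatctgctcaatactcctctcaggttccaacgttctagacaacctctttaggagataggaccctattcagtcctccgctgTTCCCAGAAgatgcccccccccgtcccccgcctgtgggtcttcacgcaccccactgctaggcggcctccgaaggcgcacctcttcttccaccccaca
In Oas1a the ISRE core began 20 and 14 bases before the start and the GAS match 98 bases before it. Psmb8 held 1 GAS match, beginning 97 bases before the start, and no ISRE core in this window. Among 32851 promoters of this length, 2.98% held the ISRE core and 7.02% the GAS letters. These are matches of letters and not measured binding.

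The 4 genes did not share a direction. Mx2 was above 0 on every array that gave a value, Oas1a and Ifi204 were below 0 on all 6 arrays, and Psmb8 was below 0 on 5 of 6. Oas1a had the lowest ratio of the 3 genes at 6 hours and Psmb8 at 24 hours. On replicate 1, the array with the narrowest spread of all rows, Oas1a and Ifi204 were closest to 0 and Psmb8 was above it.

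**Figure D1:**
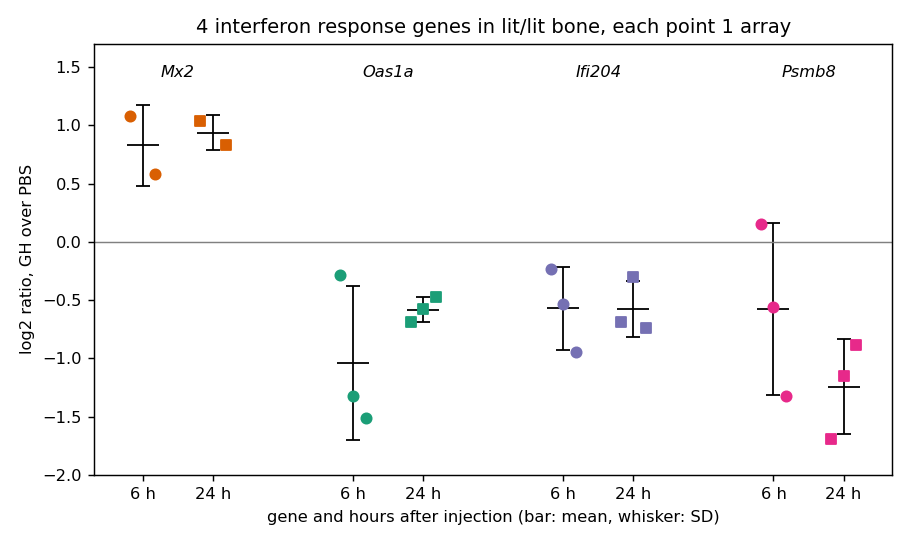
Log2 ratio of GH over PBS for each gene at 6 hours (circles) and 24 hours (squares), 1 point per array, with the mean (bar) and SD (whisker). Mx2 has 2 points per time, all above 0, and the only point of the other genes above 0 is Psmb8 on replicate 1 (0.15).

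Mx2 belongs to the Mx family of dynamin-like GTPases that block virus replication. In the RefSeq table of the C57BL/6J genome it is a transcribed pseudogene, so the row reports a transcript and not a protein. Its log2 ratio was 1.08 on replicate 2 and 0.59 on replicate 3 at 6 hours, and 1.04 on replicate 4 and 0.83 on replicate 6 at 24 hours. Replicates 1 and 5 held no value for it. All 4 values were above 0 and the ranges of both times overlapped. The mean was 0.83 ± 0.35 (SD, n = 2 arrays), a 1.78-fold ratio, at 6 hours and 0.94 ± 0.15 (SD, n = 2), 1.91-fold, at 24 hours. On each array with a value between 83.0% and 93.5% of all rows lay below it. The 10 nearest genes, which include Mx1, were measured by 4 rows of 3 genes. At 6 and 24 hours Tmprss2 averaged 0.51 and -0.13, C2cd2 -0.18 and -0.15, row 1 of Prdm15 0.25 and 0.38 and row 2 of Prdm15 -1.55 and -2.20. The rows of Prdm15 thus lay on opposite sides of 0.

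Oas1a encodes an oligoadenylate synthetase, an enzyme that senses double-stranded RNA and makes the messenger that activates the ribonuclease RNase L. At 6 hours its log2 ratio was -0.29, -1.32 and -1.51 on replicates 1 to 3, and at 24 hours -0.69, -0.58 and -0.47 on replicates 4 to 6. The row was below 0 throughout, lowest on replicates 2 and 3, and the 24-hour values lay inside the 6-hour range. The mean was -1.04 ± 0.66 (SD, n = 3) at 6 hours, a 2.06-fold lower signal with GH, and -0.58 ± 0.11 (SD, n = 3) at 24 hours. The 24-hour mean was 0.46 above the 6-hour mean, and without replicate 1 this distance was 0.84. On replicate 3 only 1.61% of all rows had a lower ratio, against 20.4% on replicate 1 and 13.6% to 24.8% at 24 hours. Oas1a sits in a cluster of near copies, Oas1b to Oas1h, and whether its probe also reads these was not tested. Of the copies only Oas1c had a row, with values of -0.12, -0.79 and -0.54 at 6 hours and -0.47, -0.06 and -0.60 at 24 hours. Oas1c was below 0 on all 6 arrays as well. In limma it fell over both times (mean -0.43, adjusted p = 0.0381) and had -0.48 ± 0.17 (SE, adjusted p = 0.149) at 6 hours. That call ended without any 1 of replicates 2, 3, 4 and 6.

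Ifi204 encodes p204, a protein of the interferon-induced p200 family that binds nucleic acids and acts in differentiation and innate sensing. Its log2 ratio was -0.23, -0.54 and -0.94 on replicates 1 to 3 and -0.69, -0.30 and -0.74 on replicates 4 to 6. The values of both times covered nearly the same range, with the lowest on replicate 3. The means were -0.57 ± 0.36 (SD, n = 3) at 6 hours and -0.58 ± 0.24 (SD, n = 3) at 24 hours, both a 1.49-fold lower signal, and lay 0.0058 apart. Between 8.16% and 25.1% of the rows of an array had a lower ratio. Its neighbours in the genome are other p200 genes, and 3 of them had 4 rows. Ifi203 averaged -0.85 and -0.66, Ifi202b -0.61 and -0.70, and the rows of Ifi209 -0.19 and -0.09 (row 1) and -0.81 and -0.63 (row 2), at 6 and 24 hours. Whether the probes of Ifi204 and these genes also read other p200 genes was not tested. Of all rows 47.86% averaged above 0 at 6 hours and 49.98% at 24 hours. All 4 family rows, 2 of them of Ifi209, averaged below 0 at both times. None passed limma's adjusted test at either time alone (2 of 4 had an unadjusted p under 0.05 at each, against 26.5% of all rows at 6 hours and 40.7% at 24 hours), and 2 of 4, Ifi203 and Ifi202b, fell over both times (adjusted p = 0.0277 and 0.0319 in limma), where 16.3% of all rows fell. Ifi203 lost this call without any 1 of replicates 2, 3, 4 and 6, and Ifi202b without any 1 of replicates 2 to 6.

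Psmb8 encodes the interferon-induced catalytic subunit that replaces Psmb5 in the immunoproteasome, the form of the proteasome that cuts peptides for major histocompatibility complex (MHC) class I. Its log2 ratio was 0.15, -0.56 and -1.32 on replicates 1 to 3 and -1.69, -1.15 and -0.89 on replicates 4 to 6. The 6-hour arrays disagreed in sign, the 24-hour arrays were all below 0, and the ranges overlapped through replicate 3. The mean was -0.58 ± 0.74 (SD, n = 3) at 6 hours and -1.24 ± 0.41 (SD, n = 3) at 24 hours, a 2.37-fold lower signal with GH at 24 hours. The 24-hour mean was lower by 0.67, or by 0.30 without replicate 1 and by 1.04 without replicate 3. The 6-hour mean was -0.94 without replicate 1 and -0.20 without replicate 3. On replicate 4 only 2.02% of all rows lay lower, while on replicate 1 65.6% did.

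Psmb8 minus Oas1a was above 0 on the 3 arrays at 6 hours (0.44, 0.77 and 0.19, mean 0.47 ± 0.29, SD) and below 0 on the 3 at 24 hours (-1.0, -0.57 and -0.42, mean -0.66 ± 0.30, SD). The order of these 2 genes thus differed between the arrays of the 2 times, although the ranges of each gene overlapped. The arrays of the 2 times are different arrays and not paired. Both genes were chosen with their ratios known, so their order is only described. The share of all pairs of rows that part in this way was not counted, and a change with time was not tested for this pair. Psmb8 and Ifi204 had no such fixed order at 6 hours. Psmb8 was the higher on replicate 1 and Ifi204 on replicates 2 and 3. Over the 6 arrays the root mean square difference was 0.43 between Oas1a and Ifi204, 0.58 between Ifi204 and Psmb8 and 0.62 between Oas1a and Psmb8.

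**Figure D2:**
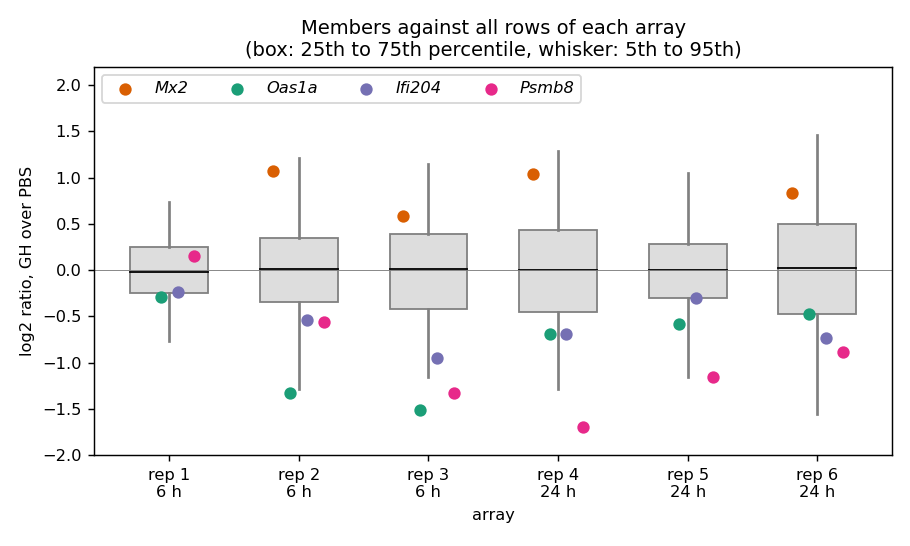
Log2 ratio of the 4 genes (coloured points) on each array, over the quartiles (box), the median (line) and the 5th to 95th percentile (whisker) of all rows of that array. Oas1a lay under the lower end of the whisker on replicates 2 and 3, Psmb8 under it on replicates 3 and 4 and at it (-1.15) on replicate 5, and the box of replicate 1 is the narrowest.

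The rows closest to each gene in pattern are given as a description. Among 10422 complete rows of named genes, those nearest to Oas1a were Dcdc2a (root mean square difference over 6 arrays 0.20), Atrnl1 row 2 (0.22) and Polr3a (0.25), a subunit of RNA polymerase III. Nearest to Ifi204 were Gclm row 2 (0.11), a subunit of the enzyme that limits glutathione synthesis, Apaf1 row 2 (0.11), the scaffold of the apoptosome, and Tlk1 row 1 (0.11). Nearest to Psmb8 were Lsm5 (0.18), an RNA-binding protein of the Lsm ring, Ms4a3 (0.20), a marker of granulocyte and monocyte precursors, and Clca3a1 (0.23). Ms4a3 averaged -0.65 at 6 hours and -1.30 at 24 hours. Mx2 lacked values on 2 arrays and was not compared.

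Of the 14 further class I rows none had a 24-hour mean as low as Psmb8, and Tap2 row 1 was the lowest. As Psmb8 was chosen with its ratios known, its place among class I and proteasome rows is only described. B2m, the light chain of class I, had 0.15, -0.54 and -0.74 at 6 hours and -1.12, -0.18 and -0.81 at 24 hours, above 0 on replicate 1 as Psmb8 was. Psmb10, another induced catalytic subunit, averaged -0.18 ± 0.17 (SE) at 6 hours and -0.29 ± 0.17 at 24 hours, and Psme1, a subunit of the proteasome activator, -0.23 and -0.16. Neither passed. The peptide transporter genes Tap1 and Tap2 lie beside Psmb8 in the genome. Tap1 had 0.05 at 6 hours and -0.33 at 24 hours and did not pass, while Tap2 row 1 fell at 24 hours (-0.71 ± 0.19, SE, adjusted p = 0.0457) and Tap2 row 2 did not pass (-0.33). The call of Tap2 row 1 ended without any 1 of the 6 replicates. Psmb5, Psmb6 and Psmb7, the constitutive subunits that the induced ones replace, had means between -0.10 and 0.43 at 6 hours and between -0.05 and 0.16 at 24 hours. The 24-hour mean of Psmb8 was lower than those of all 14 rows of the constitutive core, which spanned -0.82 (Psma2) to 0.67 (Psmb2). On replicate 6, however, Psma4 (-1.22), Psma2 (-1.15) and Psma6 (-0.94) lay below Psmb8 (-0.89). On replicate 1 only 1 of the 14 core rows was below 0. Of these 14 rows, at 24 hours Psmb2 rose (0.67, adjusted p = 0.0365 in limma) and Psma6 fell (-0.77, adjusted p = 0.0390). Of all rows 12.4% rose and 8.87% fell at 24 hours. The class II gene H2-Eb1, 5 genes from Psmb8, had -1.47 at 24 hours (adjusted p = 0.0554), and H2-Aa and H2-Ab1, in between, had 0.24 and -0.10.

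**Figure D3:**
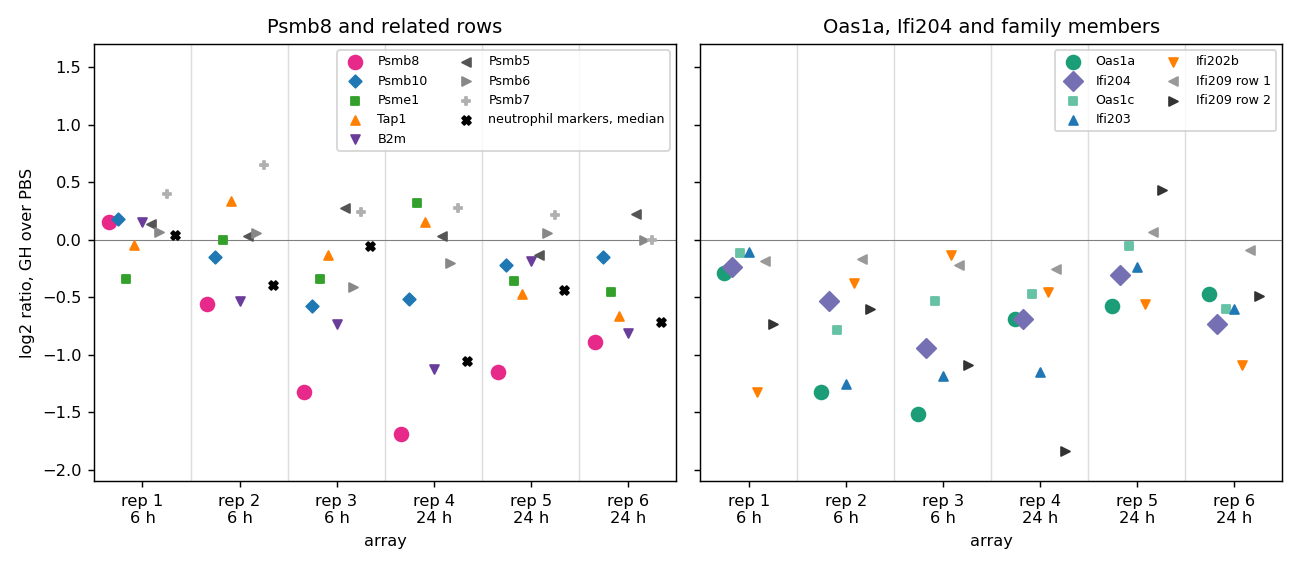
Log2 ratio of GH over PBS on each array for Psmb8 with class I and proteasome rows and the median of 13 neutrophil marker rows (left), and for Oas1a and Ifi204 with rows of their gene families (right), 1 point per row and array. The left panel holds Psmb10, Psme1, Tap1, B2m and Psmb5 to Psmb7, and among these rows Psmb8 was lowest on every array except replicate 1. Other rows of the constitutive core are not drawn, and Psma2, Psma4 and Psma6 lay below Psmb8 on replicate 6.

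Markers of other cells also moved on these arrays. Bulk RNA does not tell fewer cells of a type from less RNA per cell. The median of 13 neutrophil marker rows (9 of 18 listed genes) lay between -0.40 and 0.04 on the 6-hour arrays and between -1.06 and -0.43 at 24 hours. At 24 hours 5 of 13 rows fell, where 8.87% of all rows did, and 2 of 13 averaged above 0. The marker lists were chosen with earlier results of these data known, so their counts are only described. Without replicate 6, 0% of all rows passed at 24 hours. Monocyte and macrophage markers had only 4 rows of 2 of 14 genes. Their median was 0.51, -0.34 and -0.85 at 6 hours and -0.69, -0.26 and -0.43 at 24 hours, above 0 on replicate 1 and below 0 elsewhere. Psmb8 had these signs, as did the neutrophil median and the constitutive proteasome rows Psma1, Psma2 and Psma6. The share of all rows with these signs was not counted. Plasmacytoid dendritic markers (5 rows) had array medians between -0.36 and 0.01. Skeletal muscle markers (8 rows) had medians between 0.08 and 1.32. Medians of the 6 osteoblast and osteocyte rows lay between -0.37 and 0.18, of the 5 osteoclast rows between -0.25 and 0.15, of the 7 B lineage rows between -0.34 and 0.43 and of the 8 erythroid rows between -0.33 and 0.36. At 24 hours, where 12.4% of all rows rose, 3 of 8 erythroid rows (Hbb-b2 and 2 of 3 rows of Tfrc), 1 of 7 B lineage rows (Blnk), 1 of 5 osteoclast rows (Calcr) and the only T and NK row (Cd3e, 0.54) rose, and the osteoclast row Mmp9 row 1, also a neutrophil marker, fell. Blnk and Hbb-b2 also rose at 6 hours, where 2.75% of all rows did. Without any 1 of replicates 2, 3 and 4, 0% of all rows passed at 6 hours. At that time 4 of 7 B lineage rows and 5 of 8 erythroid rows averaged below 0. The part of these cells in the ratios of the 4 genes was not tested. The file holds ratios and no signal levels, so the labelled tissue could not be checked against the level of its markers.

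Interferon lists of 251 further genes had 111 rows of 94 genes that could be tested, each row on its own. They asked whether other genes of the response differed between GH and PBS. At 6 hours 2 of 111 rows rose (1.80%) and 0 fell, where 26 had an unadjusted p under 0.05, against 2.75% of all 19326 rows higher and 0.636% lower. At 24 hours 8 rose and 8 fell (7.21% each), against 12.4% higher and 8.87% lower. Over both times 14 rose (12.6%) and 26 fell (23.4%), against 19.2% and 16.3%. The median log2 ratio of the 111 rows was -0.07, -0.10 and -0.11 in these 3 comparisons, and that of all rows -0.02, -0.00012 and -0.01. The difference between the times gave 0 calls in the interferon lists and 0% of all rows higher or lower by limma's adjusted p, with 5 of 111 and 585 of 19326 rows (3.03%) at an unadjusted p under 0.05. Of 104 interferon rows with 6 values, 19 (18.3%) were below 0 on all arrays and 17 (16.3%) above, against 15.7% and 17.7% of all rows.

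The counts changed when single arrays were left out. Without replicate 1 the 6-hour and 24-hour counts were 11 and 25, where 9.03% and 25.9% of all rows passed. Without replicates 2, 3, 4 and 6 the 6-hour count was 0, with 10, 7, 23 and 24 rows at an unadjusted p under 0.05, and of all rows 0%, 0%, 0% and 0.598% passed. At 24 hours 9, 9, 6 and 0 rows passed when replicates 2, 3, 4 and 6 were omitted in turn, with 25 rows at an unadjusted p under 0.05 without replicate 6. The calls over all rows fell as well, from 21.3% at 24 hours to 13.2%, 11.8%, 5.32% and 0%. The count over both times was 10, 8, 15 and 20 without these replicates, where 14.1%, 13.7%, 21.9% and 20.6% of all rows passed instead of 35.5%. Of the 40 rows called over both times 8 kept the call in all 6 omissions, and none of the 24-hour or 6-hour calls did. The scan file prefix of the labels sets replicates 4 and 6 apart. With it as a covariate the counts at 24 hours and over both times fell, for the interferon rows and for all rows. In that model replicate 5 alone sets the 24-hour mean, so these counts are not given. The part of the prefix in the 24-hour calls was not tested.

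Ligand and receptor genes came first in the pathway. Ifng, the only ligand gene with a row, had 0.07 ± 0.19 (SE) at 6 hours and 0.01 ± 0.19 at 24 hours and did not pass. Of all rows 0.636% fell at 6 hours, 8.87% at 24 hours and 16.3% over both times. Of 18 rows of receptors and signalling genes none passed limma's adjusted test at 6 hours (2 had an unadjusted p under 0.05). At 24 hours 2 of the 18 fell, the kinase gene Tyk2 (-1.84 ± 0.33, SE, adjusted p = 0.0187) and row 1 of the interferon receptor gene Ifnar1 (-1.15 ± 0.19, adjusted p = 0.0155). Both also fell over both times and kept that call in all 6 omissions. Row 2 of Ifnar1 had -0.10 ± 0.12 at 24 hours and did not pass. Jak2, used by interferon gamma and by GH, had -1.17 in row 1 and 0.04 in row 2 at 24 hours, and Irf9 -0.12 ± 0.12. Neither gene passed. Of 6 rows of nucleic acid sensors and adaptors 1 fell over both times, the adaptor gene Myd88 (-0.26, adjusted p = 0.0449), a call lost in each of the 6 omissions.

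Of 46 further rows of antiviral effectors, the list of Mx2 and Oas1a, 5 rose (10.9%), 4 fell (8.70%) and 37 did not pass at 24 hours, near the 12.4% and 8.87% of all rows, with a median of -0.13. The helicase gene Ddx60 (1.46 ± 0.21, SE, adjusted p = 0.0123) and the ubiquitin ligase gene Dtx3l (1.04 ± 0.23, adjusted p = 0.0276) rose, as did Lgals3bp (0.55), Trim34a row 2 (0.49) and Pml row 2 (0.75). Xaf1, which promotes apoptosis (-1.84 ± 0.24, adjusted p = 0.0105), Samd9l (-1.54), Epsti1 (-1.22) and Pml row 1 (-1.09) fell. Ddx60, Dtx3l and Xaf1 kept their call over both times in all 6 omissions. Isg15, the ubiquitin-like modifier that is among the genes most often used as interferon markers, had 0.14 ± 0.14 at 6 hours and 0.05 ± 0.14 at 24 hours and did not pass. Its partner protease gene Usp18 had 0.21 and 0.31 and did not pass either.

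Class I processing and the induced GTPases held the only rows called at 6 hours, 1 of 14 and 1 of 8, where 2.75% of all rows rose. Erap1 row 2, an aminopeptidase that trims peptides, rose (1.11 ± 0.14, SE, adjusted p = 0.0303; 1.82 ± 0.14, adjusted p = 0.0085 at 24 hours), while Erap1 row 1 had -0.35 and -0.39 and fell over both times (-0.37, adjusted p = 0.0174). Tgtp1, a GTPase that attacks the vacuoles of parasites, rose at both times (0.96 ± 0.13, adjusted p = 0.0312; 1.28 ± 0.13, adjusted p = 0.00867). Both 6-hour calls ended without any 1 of replicates 2, 3, 4 and 6, and both 24-hour calls without replicate 6. For the counts that follow, 12.4% of all rows rose and 8.87% fell at 24 hours, and 19.2% rose and 16.3% fell over both times. Of 14 class I rows, 1 rose and 2 fell at 24 hours, the latter Tap2 row 1 and the chaperone gene Canx (-0.57, adjusted p = 0.0367). The call of Canx ended without any 1 of replicates 2 to 6. Over both times 3 rose and 4 fell, among them H2-T10 (1.39, adjusted p = 0.0127) and B2m (-0.54, adjusted p = 0.0476). H2-T10 kept its call in all 6 omissions, and B2m lost it without any 1 of replicates 2, 3, 4 and 6. Of 8 GTPase rows 2 rose at 24 hours, Tgtp1 and Gbp9 (0.65, adjusted p = 0.0380). Over both times 3 rose and 3 fell, the latter Iigp1 (-1.34), Gbp3 row 1 (-0.80) and Gbp2 (-0.42). Iigp1 lost its call without replicate 3 or 4, and Gbp3 row 1 and Gbp2 without any 1 of replicates 2 to 6. Of 7 class II rows none passed in limma at 24 hours (1 had an unadjusted p under 0.05), and 1 rose (Rfx5) and 1 fell (H2-Eb1) over both times. Of 7 rows of chemokines and cytokines none passed in limma at either time (1 at 6 hours and 3 at 24 hours had an unadjusted p under 0.05), and Tnfsf10 (-0.47) and Il18bp (-0.35) fell over both times.

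**Figure D4:**
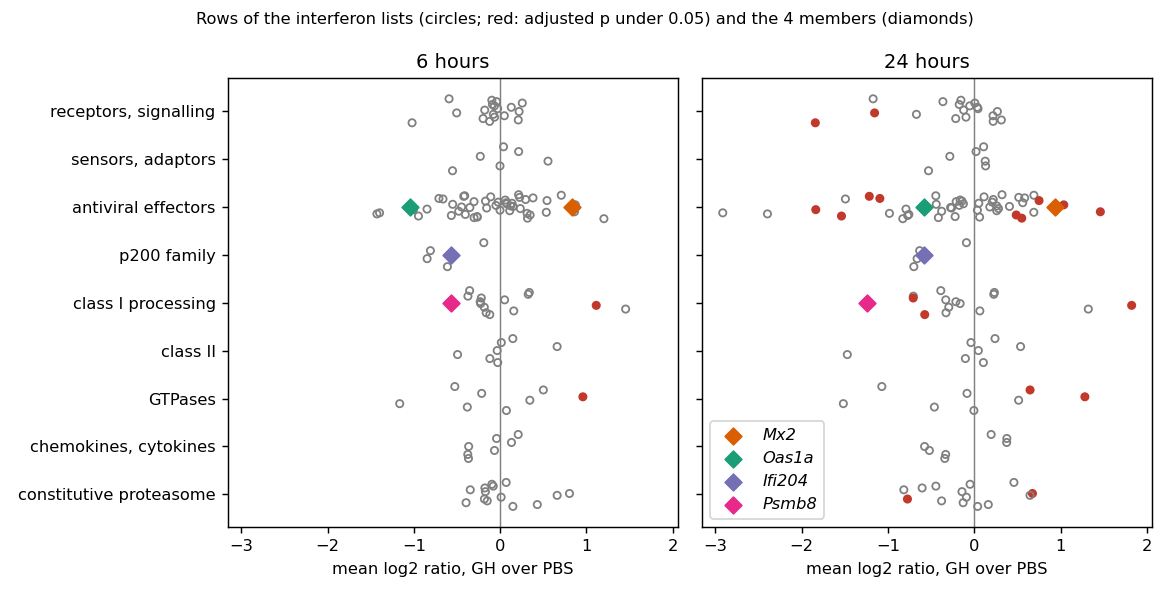
Mean log2 ratio of GH over PBS for each tested row of the interferon lists (circles, red where limma's adjusted p was under 0.05), by list, at 6 and 24 hours, with the 4 genes as diamonds in their own lists. Ifng, the only ligand row, is left out, and rows of most lists lie on both sides of 0 while the 4 p200 rows lie below it.

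Rows of the same interferon gene could differ. Of 15 interferon genes with several tested rows, 7 had all rows on 1 side of 0 at 24 hours and 8 had rows on both sides. Genes outside the lists were not counted in this way, so no share over all genes can be set beside it. Pml had 4 rows with 24-hour means from -1.09 to 0.75, and Trim30d 2 rows at -2.40 and 0.56. Mx2, Oas1a, Ifi204 and Psmb8 each had a single row, so no second row of the gene could be set beside it. A ratio here is that of the row annotated with the name.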

How the data were processed

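The values are log2 ratios as the authors deposited them, 1 for each row on each array, and 2 to the power of a value is a ratio with 2 decimals, array medians lay between -0.01 and 0.03, and the SD between 0.47 (replicate 1) and 0.91 (replicate 6). For normalization and software, nothing is given in the sources used here. The arrays held 18302 to 19961 values, without signal levels, and their number limits the precision. Gene names came from the platform annotation (11813 rows with 1 symbol), and gene types, neighbours and promoters from RefSeq tables of GRCm38.p6, whose gene positions served to order neighbours; the positions printed are those of the promoters in that build. The design text's animal numbers make each pool 2 separate mice.

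The 4 genes and all lists were chosen with earlier results of these data known. Rows with values on at least 2 arrays of each time were fitted with limma 3.58.1 in R 4.3.3, with 1 mean per time over all 6 arrays, eBayes, two-sided tests and Benjamini-Hochberg adjustment over 19326 rows, threshold 0.05. Errors are limma's standard errors (SE) or the SD as stated. Rows of a gene were not averaged, because they can disagree; averaging was an alternative. In simulated ratios with a change at 24 hours only, the 24-hour test recovered 42% of changes of 1 on the log2 scale and 95% of changes of 2. The difference between times recovered 4% and 84%. The simulation gave a row the same spread on all arrays and changed 200 rows. The real arrays differed in SD, so these shares need not hold for them. Named genes were the 4 members, rows past the threshold or with the smallest p in each list, the listed pathway genes Jak2, Irf9, Ifnar1 and Ifng (a further item is not reported here) and the 3 rows nearest to each complete member; Isg15, Usp18, Psmb5 to Psmb7, Psmb10, Psme1, Tap1, H2-Aa and H2-Ab1, Oas1c and the p200 rows, Tmprss2, Prdm15, C2cd2, the marker genes, Psma2 and Trim30d were named after their values were seen.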

Additional observations from a re-analysis of the deposited data

How the results depend on the processing

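The 6-hour count of interferon rows, 2 as deposited, was 6 when arrays were scaled to 1 median absolute deviation, 7 after quantile normalization, 1 with rows averaged per gene, 37 with array weights (3.38 for replicate 2, 0.41 for replicate 1) and 0 with the time fitted alone (limma gave 24 at an unadjusted p under 0.05). At 6 hours 3.38% of all rows passed as deposited, and 10.4%, 11.5%, 3.62%, 37.8% and 0% under these alternatives. The 24-hour count, 16, was 9 with the time fitted alone, where 13.5% of all rows passed. The count over both times was 40 as deposited. Both counts fell when the prefix of the scan file was added to the model. There replicate 5 alone sets the 24-hour mean, so its counts at 24 hours and over both times are not given. Leaving out 1 replicate gave 0 to 11, 0 to 25 and 8 to 38 rows. The difference between the times gave 0 calls under all alternatives run, with 1 to 5 rows at an unadjusted p under 0.05 where no replicate was left out. The 24-hour mean of Mx2 was 0.74 after scaling and 0.77 after quantile normalization, and that of Ifi204 was -0.30 with the prefix, where replicate 5 alone sets it. The prefix could not be fitted for Mx2, which has 24-hour values only on the 2 arrays of the other prefix. Apart from that, no mean of the 4 genes at 6 or 24 hours changed sign under centring, scaling, quantile normalization, array weights, the prefix, zeros set to missing or any omission; omitting replicate 1 or 5 cannot change Mx2, which has no value there. The cause of these shifts was not tested. Replicate numbers differ between the times, so no replicates were paired. Signal over background is unknown.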
